A study of Mus musculus with 6 samples.

Results

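The guanylate-binding proteins (GBPs) are a family of large GTPases, and 10 of its mouse genes were followed here across 6 RNA sequencing samples of primary cancer-associated fibroblasts. The genes were Gbp2, Gbp2b, Gbp3, Gbp4, Gbp5, Gbp6, Gbp7, Gbp9, Gbp10 and Gbp11. They were taken by symbol from a count table of 24015 gene rows, where all 10 were present. All 10 also passed a filter on low counts that left 13284 genes. The family was selected on its log2 changes between anti-Stat3 and control siRNA in these same samples, where Gbp4, Gbp10 and Gbp11 stood among the largest. Its values in that contrast are therefore a description, given without a test.

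The cells, fibroblasts of the tumour stroma, came as primary cultures from breast tumours of BalbC mice with the NeuT transgene, an activated form of the rat Her2/neu oncogene that drives mammary carcinoma. The fibroblasts were given nanoparticles with anti-Stat3 siRNA (3 samples) or with control siRNA (3 samples), at 1 ug/mL for 72 hours. Both groups thus received nanoparticles, and no group without them was analysed here. The comparison asks which transcripts change when STAT3, a transcription factor downstream of IL-6 type cytokines, is silenced. Samples that carry the same number in the labels departed jointly from their groups, and each number is called a pair. The labels do not say whether the samples came from separate cultures or animals, so the kind of replicate, biological or technical, is unknown. Samples of different number differed in their macrophage and epithelial transcripts, as given below.

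GBP genes are silent or weakly expressed in most resting cells and are switched on by interferons, above all by interferon gamma. Interferon gamma acts on target genes through a DNA element called GAS and induces the factor IRF1, which binds a second element called ISRE. STAT3 recognises GAS-like elements as well. The proteins gather on vacuoles that hold intracellular microbes and on the surface of bacteria, and they promote the opening of these compartments and inflammasome signalling. In fibroblasts, as in many other cell types, their transcripts serve as a readout of interferon signalling.

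In the mouse the family lies in 2 clusters. Gbp5, Gbp7, Gbp3, Gbp2b and Gbp2 follow each other in this order on the plus strand of chromosome 3. Gbp9, Gbp4, Gbp10, Gbp6 and Gbp11 follow each other on the minus strand of chromosome 5, beside Gbp8 (order and strands from the GENCODE M21 annotation of the build GRCm38). The counts themselves were made with the build mm9, per the submitters' processing notes. RefSeq promoter windows of the build GRCm38.p6 were matched for 5 members, those on chromosome 3. Each window covers 250 bases before an annotated start and 50 bases after it.

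An ISRE core was searched as GAAANNGAAA on both strands and a GAS core as TTCNNNGAA, which reads the same on both strands. All 5 genes with a window held an ISRE core, against 3.99% of 27025 genes in the same table. GAS cores were found in Gbp5 and Gbp7, 2 of the 5 genes, against 9.55% of all genes. No ISRE match overlapped a GAS match. The stretches below are shown because they hold every match, with 20 bases on each side where the window allows. Capitals mark the matches, and the ISRE cores all appear as their reverse complement.

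Gbp2, chr3:142620584-142620633, plus strand: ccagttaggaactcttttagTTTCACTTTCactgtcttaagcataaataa
Gbp2b, chr3:142594690-142594739, plus strand: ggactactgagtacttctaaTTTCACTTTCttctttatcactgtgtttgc
Gbp3, chr3:142559979-142560034, plus strand: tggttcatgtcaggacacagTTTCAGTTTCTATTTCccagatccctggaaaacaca
Gbp7, chr3:142530210-142530312, plus strand: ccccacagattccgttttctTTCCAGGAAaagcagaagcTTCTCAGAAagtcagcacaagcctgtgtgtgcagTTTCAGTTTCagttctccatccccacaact
Gbp5, chr3:142496684-142496910, plus strand: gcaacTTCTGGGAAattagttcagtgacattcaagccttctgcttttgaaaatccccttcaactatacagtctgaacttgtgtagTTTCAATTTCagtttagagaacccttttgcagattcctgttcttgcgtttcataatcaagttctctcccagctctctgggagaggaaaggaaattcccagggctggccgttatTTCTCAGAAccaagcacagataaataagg

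Gbp2 and Gbp2b carry the same 10 letters, TTTCACTTTC, at -59 to -50 and at -137 to -128 from their starts. Gbp3 has 2 overlapping ISRE cores, at -45 to -36 and -39 to -30, in 1 of its 2 windows, and no match in the other. In Gbp7 the ISRE core lies at -53 to -44, and both GAS cores lie upstream of it. Gbp5 has its ISRE core at -165 to -156, between GAS cores at -245 to -237 and -52 to -44. The matches are letters in a window and were not tested for binding by any factor.

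**Figure D1:**
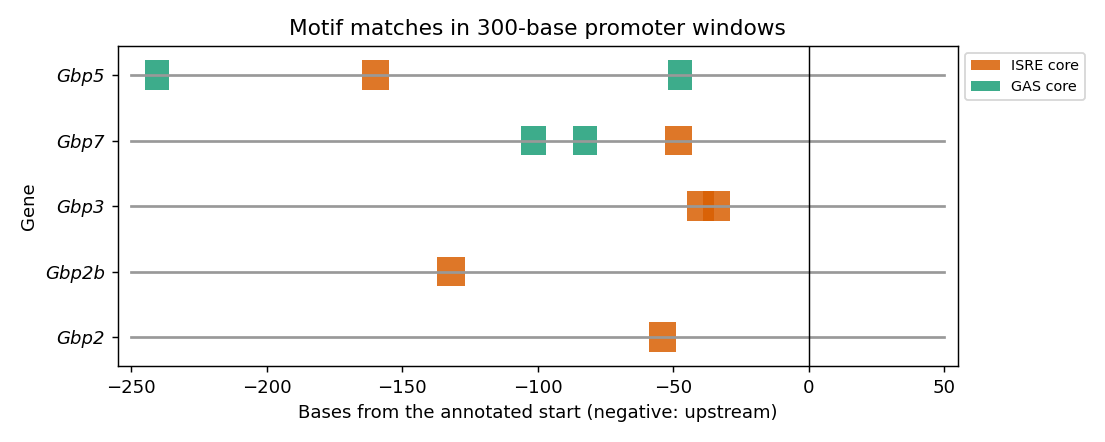
Motif matches in the promoter windows of the 5 genes of chromosome 3, by distance in bases from the annotated start. Orange boxes are ISRE cores and green boxes are GAS cores; every row holds at least 1 orange box, and only Gbp5 and Gbp7 hold green ones.

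Total counts ranged from 12998168 to 18683852 per sample. Levels are given as CPM, read counts scaled to library size with TMM factors, and changes as log2 CPM of anti-Stat3 minus control siRNA within a pair. Stat3, the gene targeted by the siRNA, had 34.7, 81.9 and 78.9 CPM with anti-Stat3 siRNA, against 220.4, 359 and 405 CPM with control siRNA in pairs 1 to 3. The groups did not overlap, and the change was similar in the 3 pairs, at -2.66, -2.13 and -2.36. The 11 fibroblast markers were all tested and summed to 30138.3, 46318.1 and 55615.2 CPM in anti-Stat3 samples 1 to 3, against 25794, 68442.7 and 71292.3 CPM in control samples 1 to 3. The sum was higher with anti-Stat3 siRNA in pair 1 and lower in pairs 2 and 3, and its part in the results below was not tested. Col1a1, Col1a2 and Col3a1 made up most of it. Of the 11 markers, 2 (Postn and Vim) were higher and 2 (Pdgfra and Dcn) lower in all 3 pairs. Over all 13284 genes the shares were 17.3% and 16.4%. The cultures also held transcripts of other cells, in amounts that differed between pairs and that are given beside the results they accompany.

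Summed over the 10 genes, GBP transcripts were higher after anti-Stat3 siRNA in every pair, by little in pair 1 and by much in pairs 2 and 3. The sum was 950.9, 2314 and 2661 CPM in anti-Stat3 samples 1 to 3, against 699 (control 1), 75.1 (control 2) and 94.9 CPM (control 3). Pair 1 thus differed by 0.44 on the log2 scale, and pairs 2 and 3 by 4.95 and 4.81. On the log2 scale, control sample 1 lay closer to each anti-Stat3 sample than to the other controls. In bulk RNA, more cells that express a gene and more RNA per cell cannot be told apart.

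Gbp2, Gbp2b and Gbp5 are the members that in the mouse end in a motif for lipid attachment, which anchors them to membranes. Gbp2, which in mice limits the growth of Toxoplasma in its vacuole, had 346, 316 and 526 CPM in anti-Stat3 samples 1 to 3, against 249, 18.8 and 37.95 CPM in control samples 1 to 3. Gbp2b, long listed as Gbp1, had 112, 455 and 626 CPM with anti-Stat3 siRNA, against 82.9, 15.2 and 19.4 CPM with control siRNA. Gbp5, linked in mice to inflammasome activation, was less abundant, with 25.8, 48.2 and 45.0 CPM against 18.4, 1.22 and 1.499 CPM in the controls. For each of these genes the lowest anti-Stat3 sample lay above the highest control, which was always control sample 1. Within pair 1 the samples differed by 0.47, 0.44 and 0.49 (log2) for Gbp2, Gbp2b and Gbp5.

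Gbp3 and Gbp7 complete the cluster on chromosome 3. Mice without this cluster are known to control Toxoplasma poorly. Gbp3 stood out by its equal level in all anti-Stat3 samples, at 267, 258.5 and 266 CPM, against 212, 15.03 and 15.9 CPM in control samples 1 to 3. Its mean with anti-Stat3 siRNA was 264 ± 4.82 CPM, against 80.8 ± 113 CPM with control siRNA (SD, n = 3 each). Gbp7, which in mouse macrophages helps to assemble the NADPH oxidase on vacuoles, had 92.8, 214 and 121 CPM with anti-Stat3 siRNA, against 69.2, 14.2 and 11.4 CPM with control siRNA. It had the smallest mean within-pair change of the family, 2.57 ± 1.88 (SD, n = 3 pairs).

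The remaining 5 members lie on chromosome 5. Gbp4, described in mice as an inhibitor of the interferon regulatory factor IRF7, had the widest range of all members. Its levels were 17.99, 591 and 632 CPM with anti-Stat3 siRNA, against 5.95, 0.69 and 0.36 CPM with control siRNA. The controls of pairs 2 and 3 rest on 13 and 6 reads, so the size of the change (9.503 and 10.34) is uncertain, whereas 8781 and 8242 reads stand behind the anti-Stat3 values. In pair 1, where the control had 88 reads, Gbp4 changed by 1.58, the most of any member.

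Gbp11 resembled Gbp4 in shape. Its levels were 3.13, 109 and 183 CPM with anti-Stat3 siRNA, against 1.56, 1.16 and 0.66 CPM in the controls, and it was the member whose 3 controls lay closest together as a ratio. RefSeq lists Gbp11 as a transcribed pseudogene and GENCODE as a polymorphic pseudogene, so its reads need not mean a protein. Gbp9 had 56.5, 145 and 113 CPM with anti-Stat3 siRNA, against 38.6, 6.14 and 5.52 CPM with control siRNA, a pattern close to that of the chromosome 3 genes.

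Gbp6 and Gbp10, which in mice take part in defence against intracellular bacteria, share long stretches of sequence. Of the distinct 100-base stretches in Gbp10 transcripts, 60.1% also occur in Gbp6, and 63.6% occur in a neighbouring gene model, Gm43302. Of those in Gbp6 transcripts, 36.3% also occur in Gbp10 and 59.0% in Gm43302. Gbp6 had 17.0, 78.5 and 73.8 CPM with anti-Stat3 siRNA, against 11.97, 1.59 and 1.86 CPM with control siRNA. Gbp10 had 11.97, 98.7 and 74.9 CPM with anti-Stat3 siRNA, against 9.47, 1.01 and 0.36 CPM with control siRNA. The sources used here do not say how reads that match both genes were counted, and the sum of the genes does not depend on how reads were split between them. Shared reads that were left out, or counted for Gm43302, would still be missing from the sum. The sum was 28.96, 177 and 149 CPM with anti-Stat3 siRNA, against 21.4, 2.59 and 2.22 CPM with control siRNA, which gives pair changes of 0.43, 6.03 and 5.99. Sharing of 100-base stretches with any other transcript was 10.01% or less for the other 8 members (50-base stretches: 19.2% or less).

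**Figure D2:**
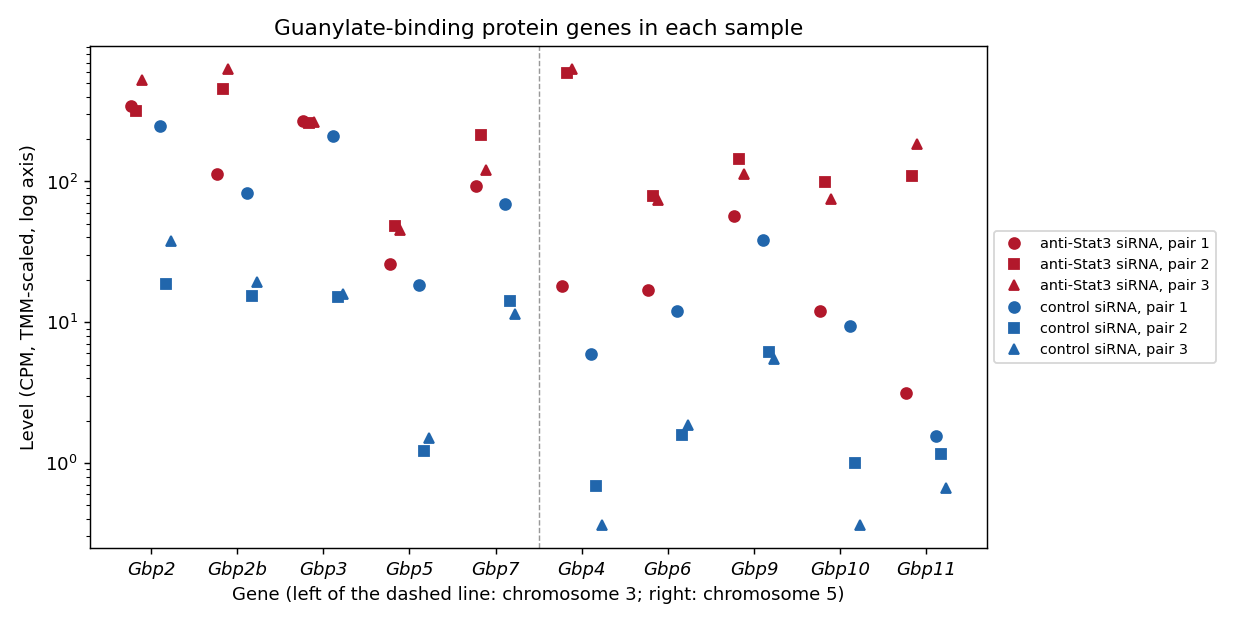
CPM of the 10 genes in each sample, on a log axis; red is anti-Stat3 siRNA, blue is control siRNA, and the marker shape gives the pair. For every gene the red points lie above the blue ones, and the blue circle, control sample 1, is the highest control.

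The 10 members shared their direction in all samples. Each was higher in the anti-Stat3 sample of all 3 pairs, which holds for 17.3% of the 13284 genes. For each, the groups did not overlap, with anti-Stat3 siRNA higher, which holds for 2.45% of genes. The median change over the members was 0.48, 5.03 and 4.90 in pairs 1 to 3, beside medians of 0.0011, -7.9e-06 and 0.01 over all genes. In pair 1 the members spanned 0.33 (Gbp10) to 1.58 (Gbp4), in pair 2 3.90 (Gbp7) to 9.503 (Gbp4), and in pair 3 3.39 (Gbp7) to 10.34 (Gbp4). In pair 1, 4.55% of all genes had a change above the members' median, and in pairs 2 and 3 the share was 0.12% each.

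**Figure D3:**
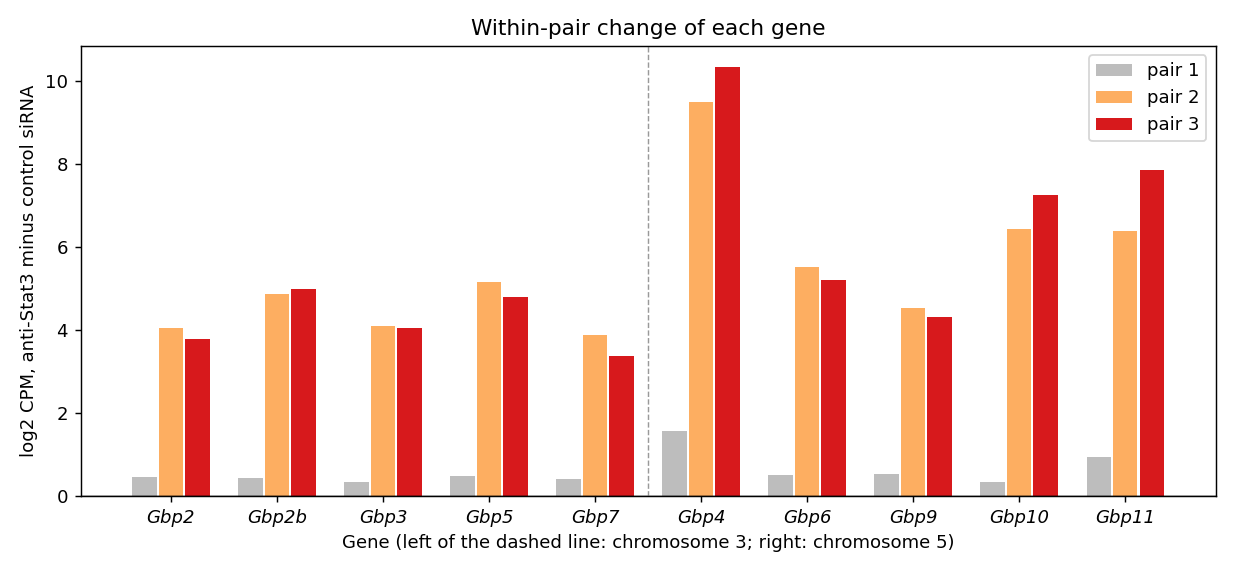
Change of each gene within each pair, as log2 CPM of anti-Stat3 minus control siRNA. All bars are above 0; those of pair 1 stay at or below 1.58 and those of pairs 2 and 3 lie between 3.39 and 10.34.

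The clusters differed in how far the changes reached. On chromosome 3 the median change of the 5 members was 0.44, 4.09 and 4.06 in pairs 1 to 3, with a highest value of 5.17. On chromosome 5 it was 0.55, 6.40 and 7.27, with a highest value of 10.34. Gbp9 (4.53 and 4.33 in pairs 2 and 3) lay within the range of the chromosome 3 genes, so the clusters overlapped. The largest changes, those of Gbp4, Gbp11 and Gbp10, belong to genes with 22 reads or fewer in each of control samples 2 and 3. The next members by reads there, Gbp5 and Gbp6, changed less. Gbp5, with 23 and 25 reads, changed by 5.166 and 4.795 in pairs 2 and 3. Gbp6, with 30 and 31 reads, changed by 5.518 and 5.218. These genes differed in their anti-Stat3 reads as well. In anti-Stat3 samples 2 and 3, Gbp4 had 8781 and 8242 reads, Gbp11 1620 and 2391, and Gbp10 1466 and 976. Gbp5 had 715 and 587 reads in those samples, and Gbp6 had 1165 and 962. The part of low control reads in the size of the changes was not tested.

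Anti-Stat3 samples differed among themselves by gene. The mean of anti-Stat3 samples 2 and 3 was 0.98 times the level of anti-Stat3 sample 1 for Gbp3 and 1.22 times for Gbp2. It was 46.7 times for Gbp11, 34.0 times for Gbp4 and 7.25 times for Gbp10. The remaining members lay between 1.80 times (Gbp5 and Gbp7) and 4.82 times (Gbp2b). Among the controls the contrast ran the other way: control sample 1 exceeded the mean of the other controls by 13.9 times for Gbp10, 13.7 times for Gbp3 and 1.71 times for Gbp11, with the others in between.

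As a result the make-up of the GBP reads differed between samples. Gbp4 made up 1.89% of the reads of the 10 genes in anti-Stat3 sample 1 (95% Wilson interval 1.69% to 2.12%), 25.6% in sample 2 (25.1% to 26.0%) and 23.8% in sample 3 (23.3% to 24.2%). In the controls its share was 0.85% (0.69% to 1.05%), 0.92% (0.54% to 1.56%) and 0.38% (0.17% to 0.82%). Gbp3 took the opposite course, with 28.1%, 11.2% and 10% of the reads in anti-Stat3 samples 1 to 3 and 30.3%, 20.01% and 16.7% in control samples 1 to 3. Gbp2 was the first member by reads in anti-Stat3 sample 1 and in all controls, and Gbp4 was the first in anti-Stat3 samples 2 and 3. These intervals cover counting error only, since reads are not independent molecules.

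**Figure D4:**
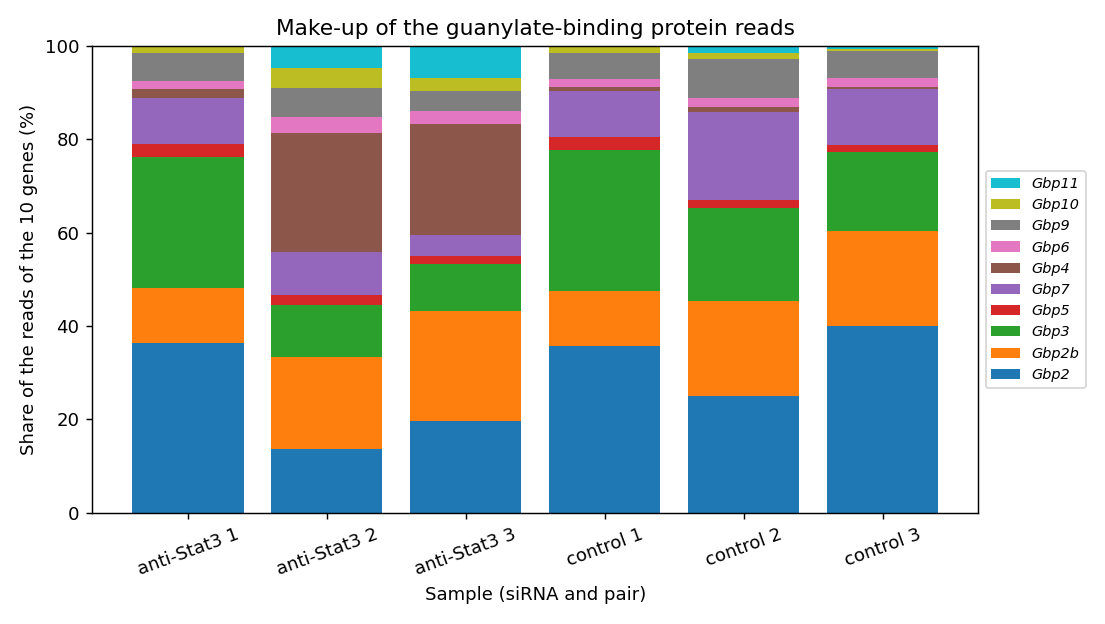
Share of the reads of the 10 genes that fell on each gene, in percent, for the anti-Stat3 samples (left) and the control samples (right). The brown part, Gbp4, takes 25.6% and 23.8% in anti-Stat3 samples 2 and 3 and at most 1.89% elsewhere.

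Long transcripts collect more reads, so levels of different genes were set side by side as CPM per kilobase of merged exons (GENCODE M21 lengths). On that scale the order with anti-Stat3 siRNA was Gbp2 at 157 ± 45.0, Gbp2b at 141 ± 92.7, Gbp3 at 80.9 ± 1.47, Gbp4 at 55.2 ± 45.8, Gbp11 at 36.6 ± 33.65, Gbp7 at 25.4 ± 11.3, Gbp9 at 20.3 ± 8.66, Gbp10 at 15.97 ± 11.6, Gbp6 at 9.48 ± 5.75 and Gbp5 at 5.98 ± 1.82 CPM per kilobase (SD, n = 3). With control siRNA it began with Gbp2 at 40.6 ± 50.9, Gbp3 at 24.8 ± 34.7 and Gbp2b at 13.9 ± 13.4, and ended with Gbp11 at 0.42 ± 0.17 and Gbp4 at 0.31 ± 0.42 CPM per kilobase (SD, n = 3). In both groups, each gene differed from its neighbour in the order by less than the larger of their SDs. Within single samples Gbp4 was last or next to last of the 10 in anti-Stat3 sample 1 and in every control, whereas it held place 4 in anti-Stat3 sample 2 and place 3 in anti-Stat3 sample 3.

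The number of members past a threshold depended on the fit, and nothing is read from these counts because the contrast proposed the family. With the group as its only term, edgeR's quasi-likelihood test called 0 of the 10 at an adjusted p of 0.05, where it called 0% of all genes higher (235 of 13284 genes had an unadjusted p under 0.05 in either direction). Without control sample 1 it called Gbp3 and Gbp5 (0.294% of all genes). With the pair as a block edgeR again called 0 members (0.0226% of all genes called higher, 0.0602% in either direction). In that fit 1439 of 13284 genes had an unadjusted p under 0.05 in either direction. DESeq2 with the block called Gbp4, Gbp10 and Gbp11 (0.873% of all genes called higher), and DESeq2 with the group alone called Gbp2b, Gbp4, Gbp6 and Gbp11 (0.12%). Without pair 1, edgeR with the block called all 10 (3.02% of all genes), and so did DESeq2 with the block (2.03%). Without pair 2 or pair 3 neither fit called any member. The fitted log2 change had a median over the members of 2.997 in edgeR without the block, 3.43 with it and 3.77 in DESeq2 with the block. In edgeR it was 4.69 without control sample 1, and with the block it was 5.03 without pair 1, 2.48 without pair 2 and 2.55 without pair 3.

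Gbp8, the remaining gene of the chromosome 5 cluster and not one of the 10, had 6, 295 and 364 reads in anti-Stat3 samples 1 to 3, against 5, 4 and 1 reads in control samples 1 to 3. It failed the filter on low counts and was not fitted. Its reads were thus near the counting limit in pair 1 and in all controls, and well above it in anti-Stat3 samples 2 and 3.

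The genes whose levels followed the family most closely are named by a measure of likeness. Likeness was the root mean square difference, in log2 CPM over the 6 samples, between a gene's profile centred on its own mean and the median centred profile of the members. The 6 nearest genes outside the family were Igtp at 0.31, Gm4951 at 0.44, Irgm2 at 0.51, Nlrc5 at 0.52, Batf2 at 0.59 and Phf11b at 0.62. Igtp and Irgm2 encode immunity-related GTPases, Nlrc5 the activator of MHC class I genes and Batf2 a transcription factor. Igtp had 181, 424 and 558 CPM in anti-Stat3 samples 1 to 3, against 121, 12.8 and 9.89 CPM in control samples 1 to 3. Profiles were compared over samples that form pairs, and no test was made of the likeness.

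Genes of interferon signalling act upstream of the GBP genes. Of 19 listed genes of interferon signalling 17 were tested. In edgeR with the group alone 0 passed (4 at an unadjusted p under 0.05), and with the block 0 passed (8 at an unadjusted p under 0.05). Over all 13284 genes, 235 and 1439 had an unadjusted p under 0.05 in these fits, which is the background for the following lists as well. In DESeq2 with the block Socs1, a feedback inhibitor of JAK kinases, rose by 1.38 ± 0.31 (SE, adjusted p = 0.0012) and Batf2, an interferon-induced transcription factor, by 3.88 ± 1.16 (adjusted p = 0.047). Batf2 had only 0.32 and 0.30 CPM in control samples 2 and 3, so the size of its change is uncertain. The median change over the list was 0.34 in edgeR without the block, beside -0.0028 over all genes. Of its 17 tested genes 9 were higher and 2 lower in all 3 pairs, beside 17.3% and 16.4% of all genes.

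Irf1, the factor that binds ISRE elements such as those printed above, had 60.9, 181 and 227 CPM with anti-Stat3 siRNA, against 45.2, 28.3 and 30.0 CPM with control siRNA. It did not pass with the block (DESeq2 adjusted p = 0.15) and passed in DESeq2 with the group alone, as did Batf2. Stat2, a transcription factor of type I interferon signalling, had pair changes of 0.32, 2.01 and 2.02 (DESeq2 with the block, adjusted p = 0.18). Irf1 and Stat2 shared with the GBPs the small change in pair 1. Control sample 1 was also their highest control, but it exceeded the others by less than for most GBPs. Stat2 had 200.8 CPM there, against 94.15 and 111.7 CPM in control samples 2 and 3. Other genes of the list differed from Irf1 and Stat2 in this. Usp18, named after its values were seen, had 333.4, 17.3 and 15.1 CPM in control samples 1 to 3. Socs1 had 3.59, 3.18 and 8.33 CPM in the same samples.

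Of the interferon genes, Ifng and Ifnb1 were listed and neither passed the filter on low counts. Ifng, the gene of interferon gamma, had 1, 1 and 0 reads in anti-Stat3 samples 1 to 3 and 0 reads in each control, where a count of 0 allows up to 0.203 CPM in control sample 1, the shallowest of the controls by effective total. Ifnb1, the gene of interferon beta, was singled out after its values were seen. It had 28 reads in anti-Stat3 sample 1 and 29 in control sample 1, and 0 reads in the other 4 samples. The pair with Ifnb1 reads was thus the pair whose control had high GBP levels, and the part of one in the other was not tested. The receptor chains Ifngr1 and Ifngr2 had pair changes between 0.01 and 0.38, and Ifnar1 and Ifnar2 between -0.25 and 0.02.

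Other GTPases of the interferon response behaved like the GBPs. Of 11 listed, 9 were tested, and all 9 were higher in all 3 pairs (17.3% of all genes). Their pair medians were 0.43, 3.66 and 5.46. In edgeR 0 passed with the group alone and 0 with the block (6 and 9 at an unadjusted p under 0.05). In DESeq2 with the block 4 rose, where 0.873% of all genes were called higher. Gm12250 (also known as Irgb10), which attacks bacterial membranes in mice, rose by 5.90 ± 1.48 (SE, adjusted p = 0.0084). Igtp, Tgtp2 and Iigp1 rose by 4.12, 5.80 and 5.84 (adjusted p = 0.046, 0.0093 and 0.016). In pair 1, Gm12250, Igtp, Tgtp2 and Iigp1 changed by 1.31, 0.58, 0.90 and 0.47, and in pairs 2 and 3 by 5.04 or more. Control samples 2 and 3 had only 1.43 and 1.02 CPM of Gm12250 and 1.16 and 1.14 CPM of Tgtp2. The size of these 2 changes is therefore uncertain. Tgtp2 and Iigp1 were named after their values were seen. Irgm1, Irgm2 and Ifi47 did not pass (adjusted p = 0.19, 0.15 and 0.16), with changes of 2.28, 2.72 and 2.57 in that fit.

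Partners of the proteins differed less. Among inflammasome genes 8 of 9 were tested, with pair medians of 0.18, 0.32 and 0.49. In edgeR 0 passed with the group alone or with the block (2 and 4 at an unadjusted p under 0.05). Gsdmd, which forms the pores of pyroptosis, was the 1 gene that passed in DESeq2 with the block, where it rose by 0.75 ± 0.19 (SE, adjusted p = 0.0094). It had 82.1, 57.8 and 104 CPM with anti-Stat3 siRNA, against 61.7, 37.6 and 44.7 CPM with control siRNA. Casp1, Il18 and Pycard, the protease, a cytokine and the adaptor of the inflammasome, did not pass (adjusted p = 0.19, 0.19 and 0.58). The ubiquitin-like conjugation genes, which direct GBPs to vacuoles, had 10 of 10 tested and 0 passed in any of these fits. Atg12 had the smallest p of them, with a change of 0.41 ± 0.16 (DESeq2 with the block, SE, adjusted p = 0.26), and Atg7, Atg5 and Map1lc3b had pair changes between 0.0011 and 0.46.

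The enzymes that attach and trim lipid anchors (6 of 6 tested) had pair medians of -0.04, -0.03 and -0.06, and 0 passed. Their 4 genes with the smallest p, Pggt1b, Fntb, Rce1 and Fnta, had pair changes between -0.71 and 0.28. The atlastins (3 of 3 tested) are relatives of the GBPs that shape the endoplasmic reticulum and are not known for interferon induction. Atl1, Atl2 and Atl3 had pair changes between -1.05 and 0.36, and 0 passed. Over all 6 lists, 53 of 58 genes were tested. DESeq2 with the block called 7, all higher, where it called 1.66% of all genes in either direction. This count was 18 without pair 1 (432 of 13529 over all genes), 0 without pair 2 (14 of 13340) and 0 without pair 3 (20 of 13576). In edgeR with the block it was 0 (8 of 13284 over all genes), and 19 without pair 1 (703 of 13529). In edgeR with the group alone it was 0 (0 of 13284 over all genes), and 4 without control sample 1 (40 of 13624).

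**Figure D5:**
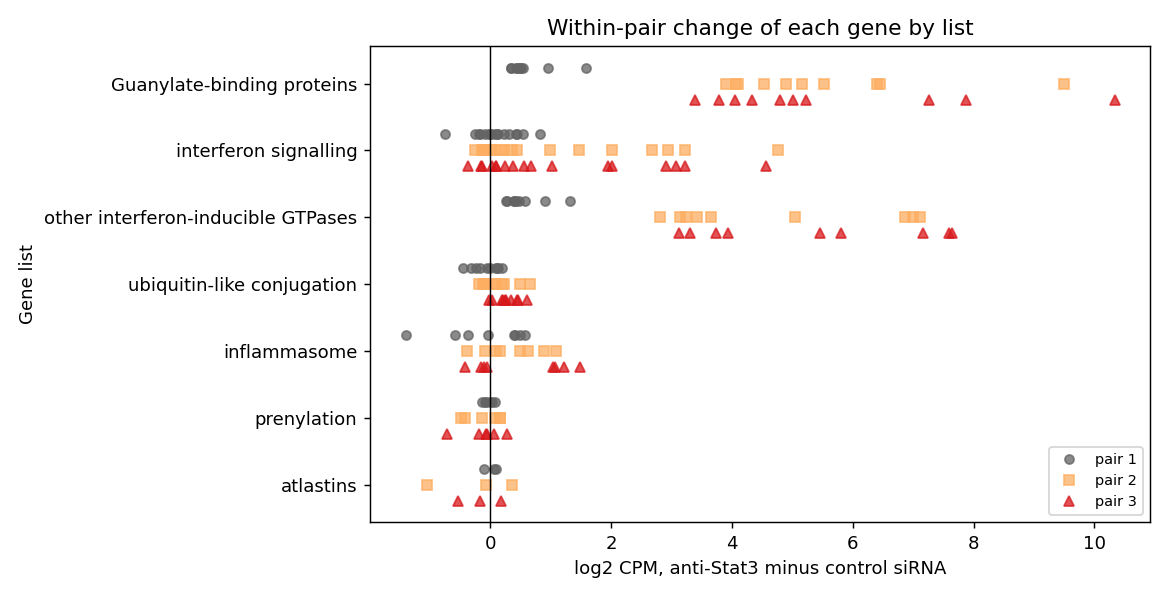
Within-pair change (log2 CPM, anti-Stat3 minus control siRNA) of each tested gene, by list; circles are pair 1, squares pair 2 and triangles pair 3. Pairs 2 and 3 reach far right for the GBPs and the other interferon-inducible GTPases, whose lowest changes there are 3.39 and 2.82, while the points of the last 4 lists lie between -1.41 and 1.48.

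Transcripts of other cells moved with the pairs. The 16 macrophage markers, all tested, summed to 42.9, 1731.2 and 2861.3 CPM in anti-Stat3 samples 1 to 3 and to 47.6, 1799.2 and 2481.5 CPM in control samples 1 to 3. The pairs with the large GBP changes were thus those with many macrophage transcripts, in both groups. C1qb and C1qc were at 0 in anti-Stat3 sample 1 and C1qa in control sample 1. Lyz2, at 1198 and 1907 CPM in anti-Stat3 samples 2 and 3, made up most of the macrophage sums there. Of the 16 markers, 3 were higher and 1, Mrc1, was lower with anti-Stat3 siRNA in all 3 pairs (17.3% and 16.4% of all genes). The part of the macrophage transcripts in the size of the GBP changes was not tested. Markers of T and NK cells, the usual sources of interferon gamma (1 of 11 passed the filter on low counts), summed to between 1.0 and 1.2 CPM with anti-Stat3 siRNA and between 1.0 and 1.4 CPM with control siRNA, with Cd3g, Cd8a and Ncr1 at 0 in all samples. Epithelial markers summed to 138.8, 400.8 and 45.9 CPM with anti-Stat3 siRNA and to 139.8, 395.7 and 43.6 CPM with control siRNA. Endothelial markers summed to between 6.6 and 39.3 CPM with anti-Stat3 siRNA and between 6.0 and 26.9 CPM with control siRNA.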

How the data were processed

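Poly(A) RNA of the fibroblast cultures was sequenced from TruSeq libraries, as the labels' protocols state. The submitters' processing notes name TopHat2 2.0.10, HTSeq and the build mm9. What the authors deposited is 1 table of raw read counts per gene symbol, without normalisation. Strand use and the treatment of shared reads are not given in the sources used here. Columns (written "sh" where titles write "si") were matched to samples by group and number; 0 value columns were left unused.

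Counts were tested in R 4.3.3 with edgeR 4.0.16 (quasi-likelihood test, two-sided, TMM, filterByExpr with a minimum count of 10 and total of 15, group alone, Benjamini-Hochberg threshold 0.05 over all tested genes). DESeq2 1.42.0 and limma-voom (limma 3.58.1), the replicate block, RLE scaling, no filter and left-out samples were alternatives. Within-pair log2 CPM used a prior count of 2. The fits were also run on simulated counts in which each changed gene had the same change in every pair. That cannot show how the fits behave where changes differ between pairs, as they did here. The titles number samples 1 to 3 in both groups. Across genes, the deviations of samples 1, 2 and 3 from their group's mean correlated at 0.83, 0.82 and 0.83 with those of their namesakes and at -0.16 or less with any other sample of the other group, so the numbers were taken to pair samples.

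The members, gene lists and rules were chosen with earlier results of these data known. Named are all members, Stat3, Irf1, Ifng, up to 4 genes per pathway list with the smallest p in blocked edgeR, and the 6 genes nearest in profile; 1 gene that the rule also names is not reported here. One listed marker, Adgre1, is in the table as Emr1. Promoters are from RefSeq (GRCm38.p6), and exon lengths and shared stretches from GENCODE M21 transcripts. Total counts of 12998168 to 18683852 allow a level of up to 0.230 CPM where a count is 0 (3 counts, counting error only).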

Additional observations from a re-analysis of the deposited data

How the results depend on the processing

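Over 20 alternative fits the 196 log2 changes of members lay between 1.22 and 10.18; their sign was fixed by the choice of members, whose groups do not overlap, and shows no stability. The number of calls depended on the processing. At an adjusted p of 0.05, edgeR with the group alone called 0 genes, 0 members and 0 pathway genes, and RLE scaling or no filter gave the same. DESeq2 with the group alone called 17 genes, 4 members and 2 pathway genes. With the replicate block, edgeR and limma-voom each called 8 genes, with 0 members, and DESeq2 called 220 genes, 3 members and 7 pathway genes. Leaving out 1 sample gave 0 to 40 genes, 0 to 2 members and 0 to 4 pathway genes, and each highest count came without control sample 1, where Gbp3 changed by 4.09. Leaving out a pair from the blocked edgeR fit gave 703 genes, 10 members and 19 pathway genes without pair 1, 3 genes without pair 2 and 0 without pair 3.

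Further alternatives were added after seeing the data. Blocked DESeq2 called 432 genes, 10 members and 18 pathway genes without pair 1, 14 genes without pair 2 and 20 without pair 3, with 0 members in either of these fits. With Gbp6 and Gbp10 summed as 1 gene, blocked edgeR called 8 genes and 0 members. Depth limits the size of the changes of Gbp4, Gbp10 and Gbp11, whose controls hold as few as 6, 6 and 11 reads.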
